A study of Danio rerio with 4 samples.

Results

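Hif-1α peaks that lay close to each other in *vhl* mutant zebrafish embryos are described here. A peak counted as clustered when its summit, the base with the deepest tag coverage, lay 10000 bp or less from the summit of another *vhl* peak on the same chromosome, and such neighbours were chained into clusters. Of 5177 *vhl* peaks, 1125 were clustered (21.7%, 95% Wilson interval 20.6 to 22.9%), in 509 clusters, and 4052 had no neighbour at this distance. The summits of the *vhl* list chose the members, so every measure of that list is given as a description with no test.

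Zebrafish of a TL/LWT mixed strain were taken at 4 days post fertilisation (dpf) as wild type or as von Hippel Lindau mutants. The mutants were homozygous for the *vhl* allele hu2117 and carried *phd3:gfp* i144, a green fluorescent reporter made from a bacterial artificial chromosome of the *phd3* (*egln3*) locus, by which they were sorted from non-fluorescent siblings. Whether the wild-type pool carried the reporter is not given in the sources used here. For each genotype, pooled whole embryos gave 1 chromatin immunoprecipitation library with a custom Hif-1α antibody and 1 input library with no antibody. With 1 library of each kind, no value below has a replicate error, and the intervals cover counting error only. Whole embryos mix all cell types, so a site bound weakly in many cells and a site bound strongly in few cells cannot be told apart.

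HIF is a transcription factor made of an oxygen-regulated α subunit and a stable β subunit. The α subunit is short-lived in well-oxygenated cells, because hydroxyl groups added to its prolines make it a target of the pVHL ubiquitin ligase. Without functional *vhl*, Hif-1α persists and can bind DNA. It binds the hypoxia response element, whose core reads ACGTG or GCGTG, and is known for switching on glycolytic enzymes, its own prolyl hydroxylases and collagen-modifying enzymes.

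The study's primer table for ChIP-qPCR gives short sequences assigned to clustered peaks, and it is also the main link between clusters and gene names. Of the 21 peak regions that this table pairs with a gene, 11 were members of clusters. Clustered peaks made up 21.7% of all *vhl* peaks and 39 of the 100 that the caller scored highest. The study picked highly significant peaks for ChIP-qPCR, so the 11 are no sign of an excess of such genes in clusters. All 11 are members of named clusters described below, and the primers of 6 of them are shown as examples. The table assigns each to a peak that is a member, with Zv9 coordinates, and each is written 5′ to 3′. Their positions were not checked against the genome. Capitals mark a core element, ACGTG or GCGTG, sought on both strands, so also as CACGT or CACGC, where ACGTG and CACGT can overlap. Among the 48 primers of the whole table, 3 held such a core (6.25%), and 1 of those shown does, the forward primer for *jupa*. No other primer of the 11 regions held a core. The absence of the core from a primer says only that these letters are not in the primer.
pfkfb3 forward: tttgcagcttaaagacccttg
pfkfb3 reverse: agggaatgggtggcagtag
gapdhs forward: ccttcgtgatggattgctc
gapdhs reverse: ctcacctccttcagtgatgct
pkm2a forward: ggtgaccgtttgagtgtgtg
pkm2a reverse: tcaagcgtcttcatcgtcag
plod1a forward: tccagatgtgcacggagtt
plod1a reverse: tggctacagtgagcaccaga
mxi1 forward: ttaatgacgtcaccctctgg
mxi1 reverse: cgtgcagtgaatatggttgg
jupa forward: ggtgcctACGTGtgtccttt
jupa reverse: tttgtcctcccgtctctcac

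The member peaks that the table assigns to these primers were chr4:24572059-24573328 (*pfkfb3*), chr16:47903762-47905342 (*gapdhs*), chr18:724699-726438 (*pkm2a*), chr8:50009344-50010284 (*plod1a*), chr22:33019809-33020571 (*mxi1*) and chr11:11774698-11775565 (*jupa*). An exon, intron or UTR is not stated for any peak here, because no annotation of Zv9 was used.

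The *vhl* ChIP library entered peak calling with 16145214 tags (reads left after duplicates at a position were removed) and the wild-type ChIP library with 7554444, so the *vhl* library was 2.14 times deeper. The fragment length modelled by the caller was 110 bp in *vhl* and 34 bp in wild type. The wild-type value is shorter than the reads of 35 bp, so it is not read here as a real fragment length. The authors' lists hold 5177 *vhl* and 1280 wild-type peaks, each called against the input of its own genotype. Tags are raw counts that are not scaled between the libraries, so a tag count is compared here with others of the same list.

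Most clusters were pairs. There were 428 clusters of 2 peaks (84.1% of clusters), 66 of 3, 11 of 4, 1 of 5, 2 of 6 and 1 of 10. The pairs held 856 of the clustered peaks (76.1%), and the 81 clusters with 3 or more members held the remaining 269. The cluster of 10, at *pfkfb3* on chromosome 4, had 4 more members than the next in size.

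**Figure D1:**
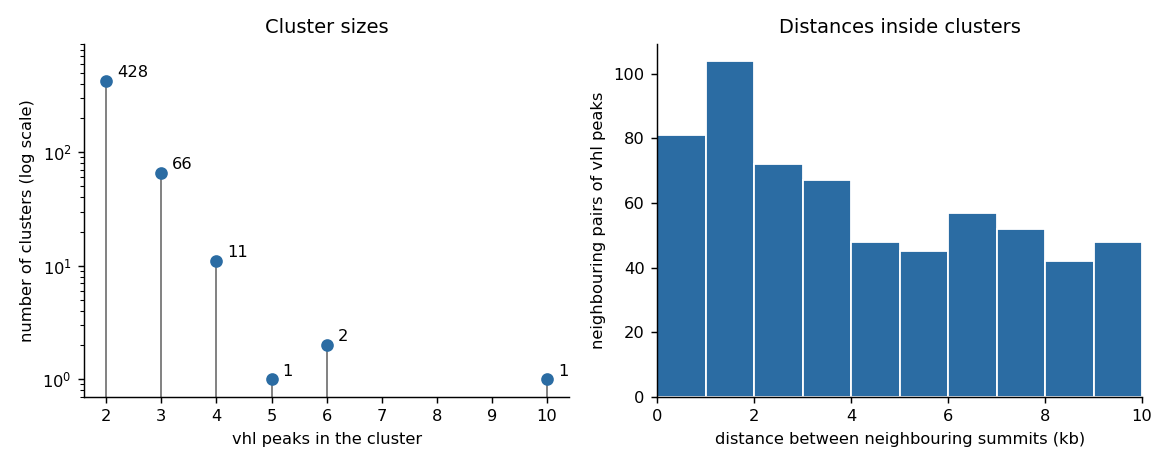
Left, the number of clusters (log scale) against the number of *vhl* peaks in the cluster. Right, the number of neighbouring pairs of *vhl* peaks inside clusters against the distance between their summits in 1-kb steps. Pairs make up 428 of the 509 clusters, and the step from 1 to 2 kb holds the most neighbours, 104.

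Distances between neighbouring summits inside clusters leaned towards the short end. Over 616 neighbouring pairs the median distance was 3699 bp (quartiles 1588 and 6768 bp, range 377 to 9955 bp). The number of neighbours per 1-kb step was highest from 1 to 2 kb, with 104, and lay between 42 and 57 in each step from 4 to 10 kb. Below 1 kb there were 81, of which 10 lay at 500 bp or less. In the whole *vhl* list, 372 neighbouring summits were up to 5 kb apart, 244 were over 5 and up to 10 kb apart, 157 were over 10 and up to 15 kb apart, and 145 were over 15 and up to 20 kb apart.

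No neighbouring members overlapped, since the caller merges overlapping calls. In 24 neighbouring pairs the edges were 50 bp or less apart, the smallest gap being 4 bp, and in 84 pairs they were 300 bp or less apart. The closest summits were those of chr25:31161803-31162576 and chr25:31162602-31163408, 377 bp apart with 68 and 58 tags. The next 4 closest neighbours lay on chromosomes 19 (404 bp), 24 (418 bp), 1 (467 bp) and 7 (485 bp), with 27 to 91 tags per peak. Whether peaks this close are separate sites or parts of 1 enriched region was not tested.

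The median cluster spanned 4413 bp from its first to its last summit (quartiles 1799 and 7605 bp). Median span was 3664 bp for pairs, 9269 bp for clusters of 3 and 13683 bp for clusters of 4. Only 41 clusters spanned more than 10000 bp, and 4 spanned more than 20000 bp. The 80 members whose nearest summit was over 9000 bp away had a median of 51 tags (20 to 329), and the 41 peaks just outside, with the nearest summit 10044 to 10962 bp away, had a median of 43 tags (24 to 201).

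Clustered peaks held more tags than the other *vhl* peaks at each quartile, by a modest amount at the median and a larger one towards the top. The median was 51 tags for clustered peaks (order-statistic 95% interval 49 to 54, quartiles 37 and 84, range 19 to 2871). For peaks with no neighbour it was 46 tags (interval 45 to 47, quartiles 34 and 70, range 15 to 794). Of clustered peaks, 89 had 200 or more tags (7.91%, interval 6.47 to 9.64%), against 144 of the 4052 others (3.55%, interval 3.03 to 4.17%). Members of clusters of 3 or more had a median of 55 tags and members of pairs 51.

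**Figure D2:**
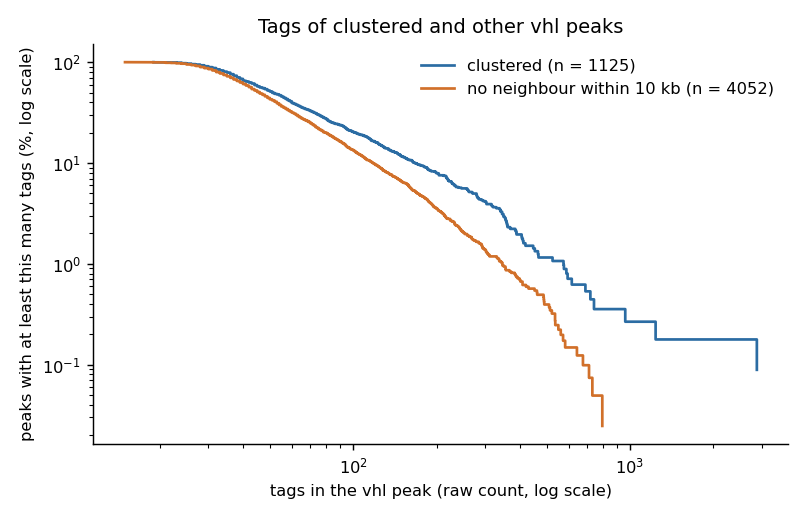
Share of peaks (%, log scale) with at least the number of tags on the horizontal axis (raw count, log scale), for the 1125 clustered *vhl* peaks and the 4052 with no neighbour within 10 kb. The curves start together at low counts and move apart towards high ones, with 7.91% of clustered and 3.55% of other peaks at 200 tags or more.

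The share of peaks that were clustered rose with tags. It was 16.3% among peaks of 15 to 29 tags (101 of 618), 20% from 30 to 49 (436 of 2180), 22.4% from 50 to 99 (359 of 1602), 25.7% from 100 to 199 (140 of 544) and 38.2% from 200 tags upwards (89 of 233). Ranked by score, the caller's p-value on an inverted log10 scale, 39 of the 100 highest peaks were clustered and 500 of the highest 2000 (25%). In total the clustered peaks held 96583 of the 360746 tags in *vhl* peaks (26.8%), and 25.6% when the *egln3* cluster, the one with most tags, was left out.

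The other measures of the list moved the same way by small amounts. The median score was 109.6 for clustered and 92.5 for other peaks, the median fold enrichment over local background 29.6 and 26.9, and the median length 589 and 561 bp. A false discovery rate (FDR, estimated by the caller from exchanging ChIP and input) of 5% or less was given to 914 clustered peaks (81.2%, interval 78.9 to 83.4%) and 3076 others (75.9%, interval 74.6 to 77.2%), beside 77.1% of all *vhl* peaks. Tags per kb of peak length had a median of 86.2 for clustered and 81.5 for other peaks. Divided by the fold enrichment, they gave a ratio with a median of 2.90 for clustered and 2.98 for other peaks. This ratio is no measured background, because it also depends on the length and shape of a peak.

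Inside clusters, tags were spread unevenly. In pairs the stronger peak had a median of 1.64 times the tags of the weaker (quartiles 1.23 and 2.59, highest 16.4), and in 161 of 428 pairs (37.6%) it had at least 2 times as many. In clusters of 3 or more, the strongest member held a median of 46.1% of the cluster's tags, from 25.2% to 85.5%. The strongest lay at an end of the cluster in 46 of these 81 clusters and between other members in 35, with ties given to the first peak. In clusters of 3, where 2 of 3 places are ends, it lay at an end in 38 of 66. All members had an FDR of 5% or less in 325 clusters (63.9%), some but not all in 165 and none in 19.

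The clusters with most tags lay at the prolyl hydroxylase gene *egln3*, at *pfkfb3*, at *ap3m2*, at *gapdhs* and at a pair on chromosome 23 for which no gene is named. Their summed tags were 5517, 3005, 1417, 1129 and 856, beside a median over all clusters of 128 (quartiles 89 and 196, range 48 to 5517). In all, 12 clusters were paired with a gene by the primer table or by the study's browser windows. These genes were chosen by the study, in part from its strong peaks, so their high tags are no independent sign of anything about clusters. The primer table pairs a gene with 1 peak of a cluster, and which genes lie at the other members was not analysed.

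The *egln3* gene encodes Phd3, one of the hydroxylases that mark HIF-α for degradation, and is itself a HIF target. Its cluster, chr17:9783244-9803138, had 4 members with 719, 690, 1237 and 2871 tags in order along the chromosome, which ranked the seventh, the ninth, the second and the first of all *vhl* peaks by tags. These peaks were also long, at 2532, 3760, 3015 and 6695 bp, beside a median of 589 bp for clustered peaks. Per kb they held 284, 184, 410 and 429 tags, so their ranks by tags partly reflect their lengths. By score they ranked much lower, at 809, 2096, 138 and 20. Their fold enrichments, from 24.1 to 28.6, were below the median of all clustered peaks. Their ratios of tags per kb to fold enrichment, from 6.43 to 17.8, lay at or above percentile 99.5 of the list. The mutants carried extra copies of this locus in the *phd3:gfp* reporter, whose part in the tags, the lengths and these ratios was not tested. This was also the sole cluster of the 509 in which more than 1 member overlapped a wild-type peak, with 1 wild-type peak of 107 tags on the third member and 2, of 56 and 153 tags, on the fourth. Only the peak of 107 tags had an FDR of 5% or less in the wild-type list (4.65%). The FDRs of those of 56 and 153 tags were 51.5% and 10.4%.

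Glycolysis was represented by 3 of the named clusters. *pfkfb3* encodes the bifunctional enzyme that makes the sugar phosphate which activates phosphofructokinase, and so sets the rate of glycolysis. Its cluster, chr4:24549318-24574052, spanned 23957 bp. Along the chromosome its 10 members had 123, 39, 961, 120, 72, 410, 226, 101, 595 and 358 tags, with neighbouring summits 725 to 8462 bp apart. All 10 had an FDR of 5% or less. The strongest 3 were the third, the ninth and the sixth in this order, so no 2 of them were neighbours. The third member reached 3100, the ceiling of the caller's score, which peaks with no neighbour also reached, and was the third of all *vhl* peaks by tags. The last member had fewer tags but the highest fold enrichment of the cluster, 193.5. The ratios of tags per kb to fold enrichment of the 10 members, from 2.27 to 5.52, were below those at *egln3*. The highest, on the third member, still lay at percentile 98.2 of the list, and the lowest, on the first, at percentile 20.2. Of the 10 members, 1, the sixth, had a wild-type peak, of 9 tags and an FDR of 82.5% in the wild-type list.

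The other glycolytic clusters were pairs. *gapdhs* encodes a glyceraldehyde phosphate dehydrogenase, and its pair at chr16:47903762-47909310 had 741 and 388 tags with summits 3855 bp apart. The first member was the peak of the primer table and the only one with a wild-type peak, of 10 tags and an FDR of 54.4%. *pkm2a* encodes pyruvate kinase, the enzyme of the last step of glycolysis. Its pair at chr18:716973-726438 had 157 and 447 tags with summits 7892 bp apart, neither with a wild-type peak. In each of these pairs the peak chosen for the primers was the stronger. This did not hold at *egln3*, where it had the fewest tags of the cluster (690), or at *pfkfb3*, where it came second (595).

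Collagen modification and gene regulation were represented by *plod1a*, *mxi1* and *h3f3d*. *plod1a* encodes a lysyl hydroxylase of collagen, and its members had 100 and 341 tags with summits 826 bp and edges 21 bp apart (chr8:50008803-50010284). *mxi1* encodes an antagonist of the Myc transcription factors. Its 3 members at chr22:33019809-33035124 had 303, 148 and 33 tags, the first with a fold enrichment of 296.2, the highest of all clustered peaks. The wild-type peak in this cluster, of 16 tags and an FDR of 74.6%, lay on the second member and not on the first. *h3f3d* encodes a histone H3, and its pair at chr24:39183838-39193236 had 132 and 525 tags, with no wild-type peak.

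The remaining named clusters held 2 to 4 members. At *ap3m2*, which encodes a subunit of the AP-3 vesicle adaptor, 4 members had 616, 338, 74 and 389 tags over 17327 bp (chr5:16030604-16050037). At *tnfrsf19*, a gene of the tumour necrosis factor receptor family, 3 members had 61, 467 and 217 tags (chr15:8400524-8411790). At *jupa*, which encodes junction plakoglobin of cell contacts, 3 members had 31, 340 and 74 tags (chr11:11773524-11782128). These 3 clusters differed in shape: the strongest member was the first at *ap3m2* and the middle one at *tnfrsf19* and *jupa*. The pair at *tiparp*, which encodes a mono-ADP-ribosyltransferase, had 345 and 155 tags (chr18:32941476-32945088), and the pair at si:dkey-14d8.7 had 412 and 192 (chr4:5415742-5420767).

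**Figure D3:**
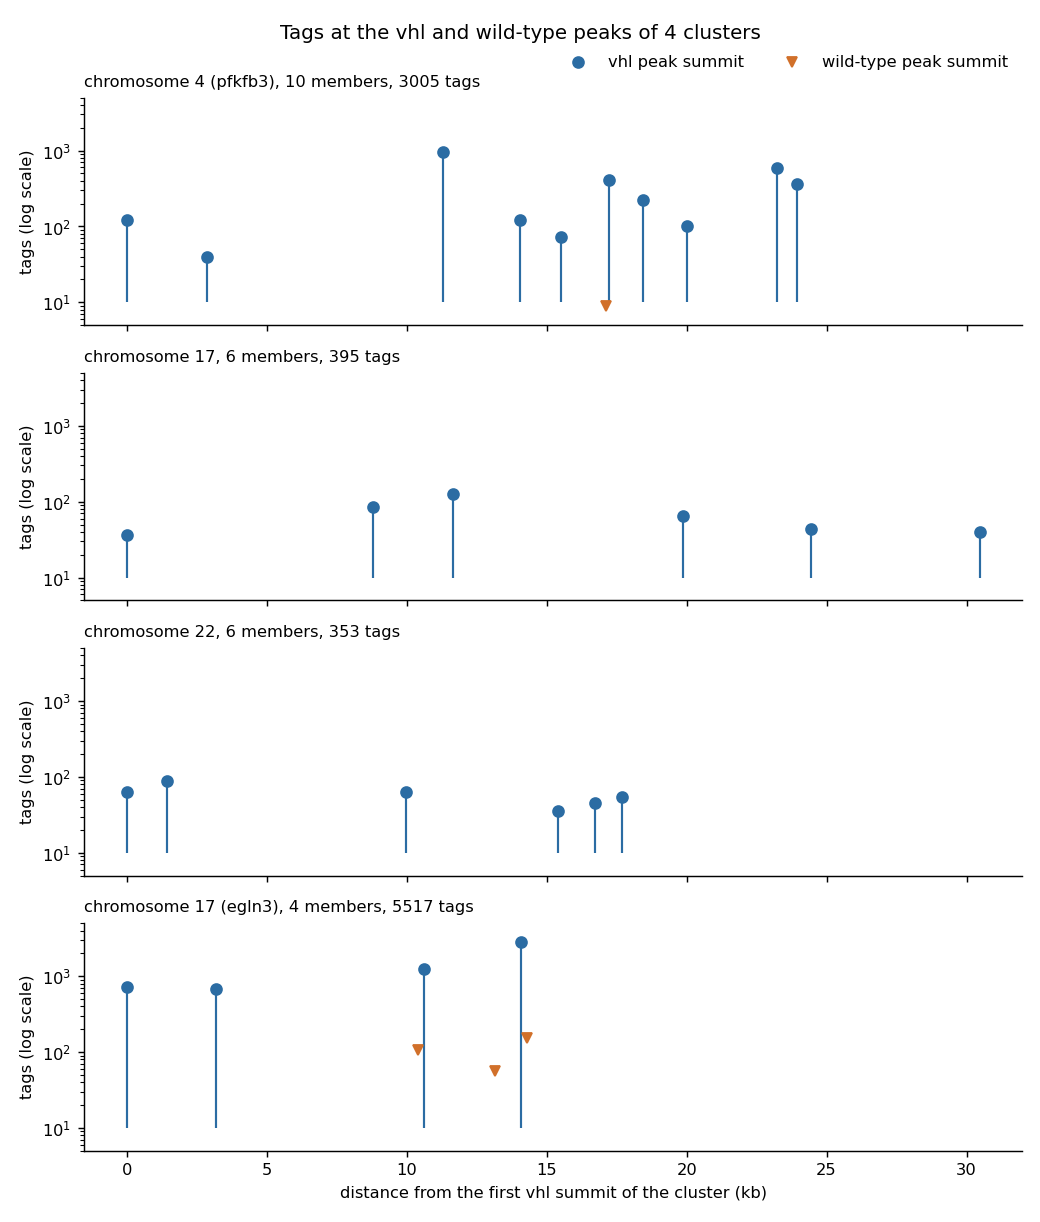
Tags (raw count, log scale) at each *vhl* peak summit (circles) and each wild-type peak summit (triangles) against the distance in kb from the first *vhl* summit, for the 3 clusters with most members and the cluster with most tags. The *pfkfb3* cluster holds 10 members of 39 to 961 tags, the clusters of 6 on chromosomes 17 and 22 hold no member above 126 tags, and the *egln3* cluster holds 4 members of 690 tags or more with 3 wild-type peaks.

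Summed tags grow with the number of members by construction. Their median was 113.5 tags for pairs, 178.5 for clusters of 3 and 408 for clusters of 4. The 2 clusters of 6 had 395 tags (chr17:11173238-11204283) and 353 tags (chr22:11252499-11271392) in all, above the third quartile of all clusters (196) and below the median of the clusters of 4. Along the chromosome the members on chromosome 17 had 36, 84, 126, 65, 44 and 40 tags, and their span of 30472 bp was the longest of all clusters. The members on chromosome 22 had 64, 89, 64, 36, 45 and 55 tags, so their strongest held only 25.2% of the tags, the lowest share among clusters of 3 or more. All members of both had an FDR of 5% or less, and none had a wild-type peak. The cluster of 5, chr1:40843415-40855593, had 39, 72, 36, 40 and 31 tags, and only 2 of its members had an FDR of 5% or less.

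After the cluster of 6 on chromosome 17, the longest were 4 members over 25808 bp at chr11:32382860-32409415, with 349, 40, 125 and 65 tags, and 4 members over 24528 bp at chr22:11401525-11426995, with 134, 48, 37 and 54 tags. Their summed tags were 579 and 273. In both, the first member was the strongest. The pair on chromosome 23 was far shorter, with 279 and 577 tags in peaks whose summits were 571 bp and whose edges were 41 bp apart (chr23:22949368-22951505).

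All 25 chromosomes held clusters, from 9 on chromosome 12 to 34 on chromosome 18. The share of a chromosome's *vhl* peaks that were clustered had a median of 21.9%. It was lowest on chromosome 12, with 18 of 169 peaks (10.7%, interval 6.84 to 16.2%), and highest on chromosome 22, with 56 of 174 (32.2%, interval 25.7 to 39.4%). Chromosome 18 came second, with 70 of 232 (30.2%). Peaks enter by whole clusters, as the rule sets, so these intervals are too narrow to compare chromosomes. Chromosomes 12 and 25 held pairs only, and chromosome 11 held the most clusters of 3 or more, 8.

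**Figure D4:**
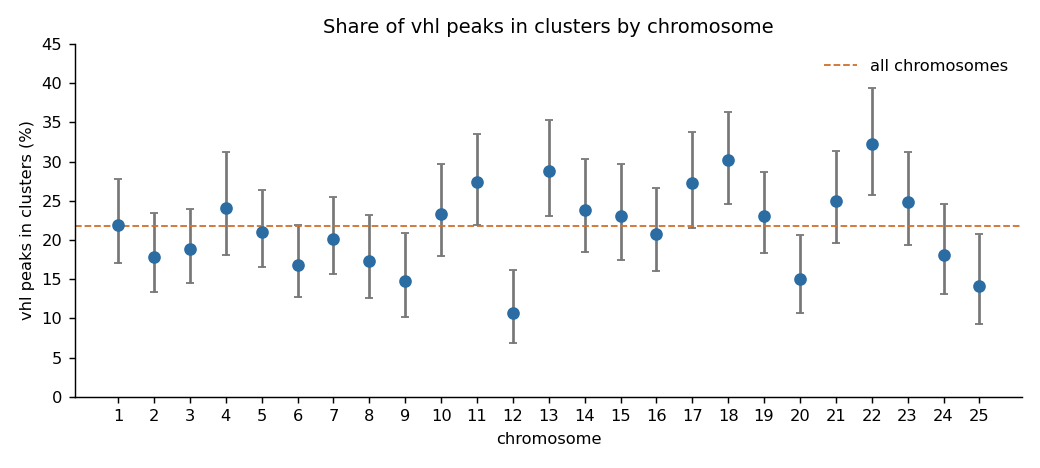
Share of the *vhl* peaks of each chromosome that were clustered (%, points) with 95% Wilson intervals (bars), and the share over all chromosomes (dashed line, 21.7%). Chromosome 12 lies lowest at 10.7% and chromosome 22 highest at 32.2%.

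Chromosomes with more *vhl* peaks per Mb tended to have a larger clustered share, which the rule in part fixes. The density ran from 2.62 peaks per Mb on chromosome 4 to 5.01 on chromosome 19, measured between the outermost peaks. Across the 25 chromosomes, which share 1 library, density and clustered share had a Pearson's r of 0.46 and a Spearman's rho of 0.54, given as a description. Chromosome 22, with 4.13 peaks per Mb, had a larger share than chromosome 19.

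The wild-type list was not used by the rule. Of the clustered *vhl* peaks, 31 had at least 1 bp in common with a peak of wild type (2.76%, interval 1.95 to 3.88%). The same held for 120 of the 4052 others (2.96%, interval 2.48 to 3.53%) and 2.92% of all *vhl* peaks. With only the wild-type peaks of an FDR of 5% or less, the counts were 9 clustered peaks (0.800%) and 35 others (0.864%), beside 0.850% of all. The intervals overlap in both counts, and no test of a difference was run. The wild-type library was 2.14 times shallower and its modelled fragment shorter than a read. The part of either in these low shares was not tested.

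Members with a wild-type peak had more tags at the median, although 11 of the 31 had under 100. The median was 204 tags (31 to 2871) for members with a wild-type peak and 51 for those without, while among peaks with no neighbour it was 72.5 and 45. Since clustered peaks held more tags, the shares were also compared within bands of tags. From 200 tags upwards, 16 of 89 clustered peaks (18.0%, interval 11.4 to 27.2%) and 29 of 144 others (20.1%, interval 14.4 to 27.4%) had a wild-type peak, beside 19.3% of all. From 50 to 99 tags these were 7 of 359 (1.95%, interval 0.948 to 3.97%) and 50 of 1243 (4.02%, interval 3.06 to 5.26%). Below 30 tags they were 0 of 101, which allows a share of up to 2.97% by 3 counts (Wilson upper bound 3.66%), and 3 of 517 (0.580%). In each of the 5 bands the clustered share was the lower, and in each the intervals overlap.

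**Figure D5:**
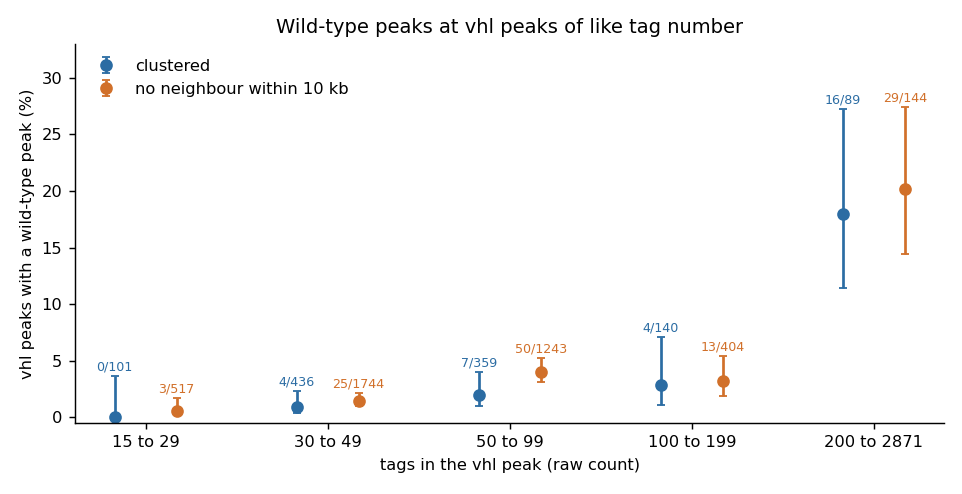
Share of *vhl* peaks that share at least 1 bp with a wild-type peak (%, points) in 5 bands of *vhl* tags (raw count), for clustered peaks and for those with no neighbour within 10 kb. Bars are 95% Wilson intervals and the labels give counts. Both kinds lie below 5% under 200 tags and at 18.0% and 20.1% above.

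At the level of clusters, 31 of 509 (6.09%, interval 4.32 to 8.52%) had a wild-type peak between the outer edges of their members. That was so for 21 of 428 pairs (4.91%, interval 3.23 to 7.38%) and for 10 of the 81 larger clusters (12.3%, interval 6.85 to 21.3%), which are also longer. In the 30 clusters with an overlapped member, the strongest member was overlapped in 21 (70.0%, interval 52.1 to 83.3%). In a pair, 1 of 2 members is the stronger. Overlap was also most frequent at 200 tags or more in clustered and other peaks alike, and the part of tag number in the 70.0% was not tested. The 31 clusters held 35 of the 1280 wild-type peaks, of which 33 lay on a member and 2 between members. A median wild-type peak on a member had 16 tags (6 to 153), and its summit lay a median of 23 bp from that of the member (1 to 933 bp).

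By score, the 3 highest wild-type peaks inside clusters were chr13:3586268-3586563 with 80 tags (*vhl* member with 453), chr11:35409670-35410028 with 81 tags and chr5:16031115-16031429, at *ap3m2*, with 85 tags (*vhl* member with 616). All had an FDR of 0% in the wild-type list. The second of these lay on the weakest of 3 members, with 94 tags in *vhl*, where the strongest member of that cluster had 235 tags and no wild-type peak. At *ap3m2* this wild-type peak lay on the strongest member, and the other 3 members, with up to 389 tags, had none. A second wild-type peak in that cluster, of 9 tags and an FDR of 42.5%, lay between members.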

How the data were processed

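The authors aligned uniquely mapped reads of 35 bp to Zv9 (danRer7) with CASAVA 1.8.2 and called peaks per genotype, on 1 ChIP library against its input, with MACS 1.4.2 at a p-value of 1e-05. Each deposited list gives tags (raw counts, duplicates removed, not scaled between genotypes), a score (the p-value on a negative log10 scale, multiplied by 10), a fold enrichment (ratio to local background) and, in percent, an FDR. These values come from the authors' peak caller. Coordinates are counted from 1.

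Summits were chained at 10000 bp or less. Overlap with wild-type peaks needed 1 bp. Shares carry Wilson intervals at 95%, and peaks of 1 cluster are not independent. Values were computed in Python 3.11.15 (pandas 2.3.3, numpy 2.4.6, scipy 1.17.1) and drawn with matplotlib 3.10.9. On simulated data of 1309 peaks, clustering and overlap gave 0 errors. Named clusters were the 5 with most members, tags, span or the closest summits, those with more than 1 member overlapped by a wild-type peak, and those at positions the study pairs with a gene. The wild-type peaks with the highest scores and the cluster of chromosome 11 they led to were chosen with their values in view. Members and lists were chosen with earlier results of these data known. The alternatives were other distances, thresholds, merging, edge distances and overlap rules. No test was run, since the rule used the *vhl* list and there is 1 library per group. Sequence and gene annotation of the peaks on Zv9 were not analysed here.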

Additional observations from a re-analysis of the deposited data

How the results depend on the processing

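With a limit of 5000 bp, 705 peaks formed 333 clusters, 29 of them with 3 or more members, and with 20000 bp there were 158 clusters of 3 or more. Keeping only *vhl* peaks at FDR 5% or below left 48 clusters of 3 or more, median tags of 60 (clustered) and 54 (no neighbour), and wild-type shares of 3.22% and 3.58%. Keeping only scores of 100 or more left 373 clustered peaks in 174 clusters, 18 with 3 or more members, median tags of 85 and 73, and wild-type shares of 4.29% and 4.41%. With wild-type peaks of an FDR of 5% or less, these shares were 0.800% and 0.864%. With summit limits of 5000 and 20000 bp and under each threshold tried, the median was higher for clustered peaks and the wild-type share lower. Neither was computed for merged peaks or edge-to-edge distances. Merging peaks 300 bp or less apart left 980 clustered peaks in 449 clusters, and edge-to-edge distances gave 1149 in 517. Asking for the wild-type summit inside the *vhl* peak left both wild-type shares as they were. Leaving out the cluster with most tags, an alternative chosen after seeing the data, moved the clustered share of tags from 26.8% to 25.6%. No paired analysis was possible because each genotype has 1 library of each kind, and for the same reason no replicate could be left out. Whether a deeper wild-type library would hold more peaks was not tested.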

Other observations

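At the scale of 1 Mb, clustered peaks were unevenly placed, which the rule in part fixes, because peaks in dense stretches have closer neighbours. Stretches of 1 Mb with a *vhl* peak held a median of 4, and 21.7% of all *vhl* peaks were clustered. Of 1212 stretches of 1 Mb that held a *vhl* peak, 835 held no clustered one and 7 held 10 or more. The stretch with most lay on chromosome 22 from 11 Mb, where 21 of 27 peaks were clustered, in 7 clusters with a median of 52 tags per member. It includes both the cluster of 6 and the long cluster of 4 named above. On chromosome 1 from 40 Mb, 17 of 27 peaks were clustered, in 6 clusters. On chromosome 4 from 24 Mb, 12 of 13 were clustered, 10 of them at *pfkfb3*.

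Neighbours within the wild-type list were counted in the same way. This list is shorter than the *vhl* list (1280 against 5177 peaks). Its share of peaks with a neighbour therefore cannot be compared with the 21.7% of *vhl* peaks. Of 1280, 55 had a wild-type neighbour within 10 kb (4.30%, interval 3.32 to 5.55%), in 25 clusters of which 22 were pairs. Of these 25 clusters, 16 overlapped a *vhl* peak and 3 touched a *vhl* cluster. Few wild-type peaks lay inside *vhl* clusters at all, 35 of 1280 (2.73%). Of these 35, 7 had a wild-type neighbour within 10 kb, a larger share than the 4.30% of all wild-type peaks. All 7 belonged to the 3 clusters that touched a *vhl* cluster, and no test of a difference was run. Whether the closest wild-type neighbours are separate sites was not tested. The 4 wild-type peaks from 9794740 to 9806492 (first to last summit) on chromosome 17 began inside the *egln3* cluster and ran past its end.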
